A study of Mus musculus with 12 samples.

Results

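A set of 10 genes of serine synthesis and of the stress response run by the transcription factor ATF4 was followed in the transcriptomes of 12 mouse melanomas. They were taken by symbol from the deposited expression table, where all 10 were found among 32416 gene symbols. They are Phgdh, Psat1, Psph, Shmt2 and Mthfd2, which make serine and pass on its carbon, and Asns, Atf4, Chac1, Ddit3 and Trib3, which are ATF4 and genes it acts on. The tumours were grown under the skin of C57BL/6 mice from cells of B16, a mouse melanoma line, and carried either an Aoah over-expression vector or the empty Vector. Aoah encodes acyloxyacyl hydrolase, a lipase. Of the B16mhgp100 model there were 4 tumours labelled Aoah and 4 labelled Vector, and these mice were given anti-PD1, an antibody to a T cell checkpoint receptor, starting on day 10 after the cells were implanted. Of the B16F10 model there were 2 with each vector, and these mice were given anti-PD1 together with anti-CTLA4, an antibody to another such receptor, starting on day 6. Antibodies came at 200 µg per dose, 2 times per week for 4 doses, and tumours were removed 1 day after the last dose. All 12 tumours were thus treated, and none was left without antibody. The labels do not give the promoter of the Aoah vector or say whether the transduced cells were a single clone.

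Serine is built from a glycolysis intermediate by 3 enzymes in a row, and its side carbon then enters the folate cycle, which feeds the making of purines and thymidine. Cells lacking amino acids, or with unfolded protein in the endoplasmic reticulum, phosphorylate the translation factor eIF2, which slows most protein synthesis while favouring translation of ATF4. ATF4 in turn raises the genes for amino acid uptake and synthesis, for tRNA charging and, under lasting stress, for factors that can lead to cell death. Because ATF4 is largely set by translation, the level of its mRNA need not follow the protein.

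ATF4 binds DNA with partners of the C/EBP family at a composite element, and the promoters of the 10 genes were searched for it to show where those letters lie. All 10 had an entry in RefSeq's promoter windows for mouse build GRCm38.p6, which run from 250 bases before to 50 bases after the start of the gene. The letters searched were TGATGNAA and, on the other strand, TTNCATCA. They were in the windows of 3 of the 10 genes, Chac1, Asns and Trib3, and in 3.97% of all 32851 windows. In the sequences of these genes, written 5′ to 3′ on the gene's own strand, capitals mark the element. The Chac1 run is chr2:119350992-119351241 on the + strand, and the element begins 193 bases before the start. The Asns run is chr6:7693210-7693459 on the - strand, and the element begins 23 bases before the start. The short Trib3 run is chr2:152344029-152344056 on the - strand, and the element begins at position 15 of the transcript.
Chac1: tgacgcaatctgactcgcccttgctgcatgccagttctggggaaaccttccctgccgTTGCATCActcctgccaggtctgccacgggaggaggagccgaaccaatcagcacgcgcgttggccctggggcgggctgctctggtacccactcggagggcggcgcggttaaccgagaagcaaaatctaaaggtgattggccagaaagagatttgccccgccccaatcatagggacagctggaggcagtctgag
Asns: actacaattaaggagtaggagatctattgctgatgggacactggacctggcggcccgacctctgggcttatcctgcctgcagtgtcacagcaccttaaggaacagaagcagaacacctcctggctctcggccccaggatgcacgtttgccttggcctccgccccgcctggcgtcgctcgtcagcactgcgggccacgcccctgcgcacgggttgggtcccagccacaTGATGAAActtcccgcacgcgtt
Trib3: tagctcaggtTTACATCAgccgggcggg

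The CCAAT box, whose letters are CCAAT or ATTGG on the other strand, is a common promoter element bound by the factor NF-Y. It was in the windows of 7 of the 10 genes (Phgdh, Psat1, Psph, Mthfd2, Atf4, Chac1 and Ddit3) and in 37.4% of all windows. No match of one element overlapped a match of the other in these genes. The runs of Phgdh and Psph, a pair of serine enzymes that fell together in the comparison of the models, are shown with the box in capitals. Phgdh is chr3:98339970-98340219 on the - strand, with boxes 193 and 23 bases before the start. Psph is chr5:129787254-129787503 on the - strand, with boxes 78 and 48 bases before the start. A match describes the letters only, and says nothing on whether a factor is bound.
Phgdh: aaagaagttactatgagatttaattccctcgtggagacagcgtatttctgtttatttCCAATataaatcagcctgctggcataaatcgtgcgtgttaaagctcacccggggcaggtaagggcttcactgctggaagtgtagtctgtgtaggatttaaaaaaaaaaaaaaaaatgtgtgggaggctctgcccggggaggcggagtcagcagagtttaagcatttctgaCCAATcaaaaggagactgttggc
Psph: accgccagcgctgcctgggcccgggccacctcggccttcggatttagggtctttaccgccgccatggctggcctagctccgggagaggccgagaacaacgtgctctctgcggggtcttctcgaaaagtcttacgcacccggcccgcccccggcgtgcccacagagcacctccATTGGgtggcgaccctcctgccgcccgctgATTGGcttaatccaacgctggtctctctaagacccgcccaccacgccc

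Expression is given as TPM, a transcript abundance that is scaled for gene length and library total and keeps no read depth, so reads per library are unknown. Each library had 13775 to 14791 genes at 1 TPM or more. Aoah itself stood at 14.0 to 22.5 TPM in the B16mhgp100 libraries labelled Aoah 1 to 3. It stood at 7.58, 0.89, 2.43 and 1.57 TPM in Vector 1 to 4. The library labelled Aoah 4 held 3.91 TPM, under Vector 1 and above the other Vector libraries. That level lay below the other libraries labelled Aoah, and it cannot settle whether the label is right. This library is kept in its labelled group here, and results are also given without it. In B16F10 the levels of Aoah were 21.8 and 23.7 TPM with the Aoah vector and 1.49 and 0.75 TPM with Vector. The B16mhgp100 library labelled Aoah 4 stood apart: its 7 keratinocyte markers summed to 4409 TPM against at most 27.8 TPM elsewhere, its 8 skeletal muscle markers to 4843 TPM against at most 731.5 TPM, and its 7 melanocyte markers to 7802 TPM against 15744 to 29292 TPM. Ribosomal protein genes made up 22.0% of it and 8.78% to 12.5% of the others. In B16F10 Vector 2, mitochondrial genes made up 10.4%, against at most 6.38% elsewhere. All 7 melanocyte markers reached 1 TPM in each of the 12 libraries. The labels do not state that each tumour had its own mouse, so a p-value here reflects only how these tumours vary among themselves. In bulk RNA fewer cells of a type cannot be told apart from less RNA per cell.

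Levels of the 10 genes differed by about an order of magnitude within a group. In the Vector tumours of B16mhgp100, Atf4 stood highest at 342.7 ± 32.6 TPM, followed by Phgdh at 295.9 ± 10.7 TPM, and their ranges overlapped (SD, n = 4 throughout). Shmt2, the mitochondrial enzyme that takes the side carbon from serine, came next at 193.3 ± 14.4 TPM. Ddit3, Psat1, Mthfd2 and Asns followed at 142.1 ± 22.1, 124.9 ± 7.61, 113.8 ± 6.87 and 112.8 ± 15.4 TPM, and each overlapped its neighbour in this order. Psph at 48.4 ± 3.02 TPM and Trib3 at 41.2 ± 8.04 TPM overlapped as well. Chac1 was the lowest at 28.2 ± 4.13 TPM. Over all 12 libraries, the gap between highest and lowest ran from 2.75-fold for Atf4 to 9.23-fold for Chac1.

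**Figure D1:**
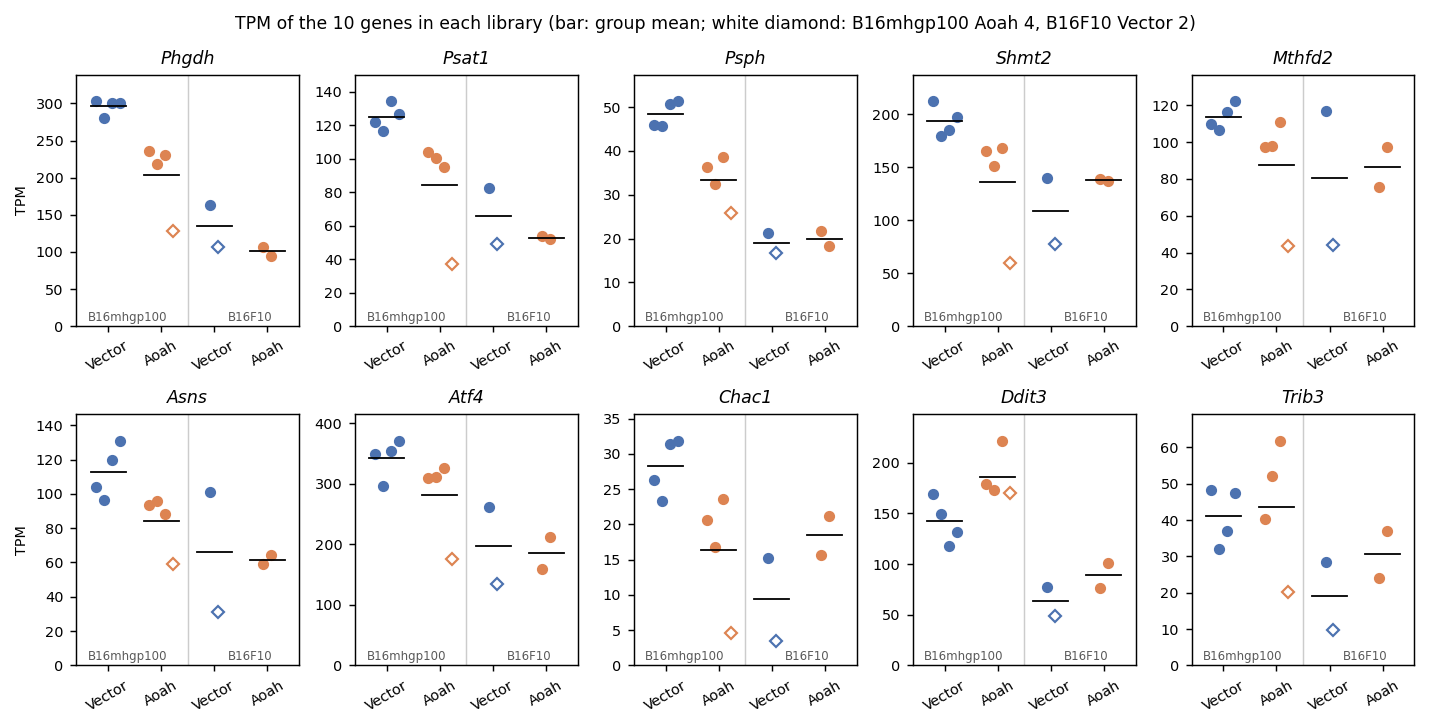
TPM of each of the 10 genes in the 12 libraries, on a linear axis from 0, with 1 panel per gene, 1 point per tumour and a bar at the group mean; open diamonds are the B16mhgp100 library labelled Aoah 4 and B16F10 Vector 2. The library labelled Aoah 4 is the lowest of the B16mhgp100 libraries for 9 genes, with Ddit3 the exception, and B16F10 Vector 2 is the lowest of all 12 for 6 genes.

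Between the models, all 10 genes had lower mean levels in B16F10 than in B16mhgp100, and Phgdh, Psph and Ddit3 fell past the threshold. The labels set no such comparison, and since the antibodies and the first treatment day changed with the cell line, their parts cannot be told apart. Phgdh encodes phosphoglycerate dehydrogenase, the first enzyme of serine synthesis. It stood at 302.6, 279.9, 300.6 and 300.4 TPM in B16mhgp100 Vector 1 to 4 and at 236.3, 218.5, 230.8 and 128.1 TPM in the libraries labelled Aoah 1 to 4. Its levels in B16F10 were 163.7 and 106.7 TPM in Vector 1 and 2 and 106.3 and 95.0 TPM in Aoah 1 and 2. The library labelled Aoah 4 lay between the B16F10 tumours, and the other B16mhgp100 libraries lay above all of them. Phgdh averaged 249.7 ± 60.0 TPM (SD, n = 8) against 117.9 ± 31.0 TPM (SD, n = 4), which is 2.12-fold. The difference in log2(TPM + 1), the scale of every test here, was -1.06 (SE 0.19, limma adjusted p = 0.00657).

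Psph encodes phosphoserine phosphatase, which releases serine in the last step. It stood at 45.8, 45.7, 50.6 and 51.3 TPM in B16mhgp100 Vector tumours and at 36.2, 32.5, 38.6 and 25.9 TPM in the libraries labelled Aoah. In B16F10 it stood at 21.3 and 16.6 TPM in Vector and at 21.8 and 18.2 TPM in Aoah tumours. No B16F10 library reached any of the B16mhgp100 libraries. The difference was -1.01 (SE 0.15, limma adjusted p = 0.0025), and the mean levels stood 2.10-fold apart. Psat1, the phosphoserine aminotransferase of the step between them, had a difference of -0.75 (SE 0.27), which did not pass (limma adjusted p = 0.119).

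Ddit3 encodes CHOP, a transcription factor that is known to promote cell death under unresolved stress. It stood at 169.2, 149.2, 118.2 and 131.7 TPM in the Vector tumours of B16mhgp100 and at 178.6, 173.5, 221.6 and 169.9 TPM in the libraries labelled Aoah. In B16F10 it stood at 77.4 and 48.9 TPM in Vector and at 76.6 and 101.1 TPM in Aoah tumours. Again the models did not overlap. The difference was -1.12 (SE 0.17, limma adjusted p = 0.00269), with means 2.16-fold apart.

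Among all 16556 genes tested between the models, 3.71% fell in B16F10 and 3.66% rose, against 3 of the 10 genes here that fell and 0 that rose. The 10 genes were chosen with earlier results of these data known, and they varied together over the libraries. This count and the later counts set beside all genes are therefore a description. The median difference of the 10 genes was -0.73, and that of all genes was -0.03. The other differences ran from -0.82 for Trib3 and -0.71 for both Atf4 and Chac1 to -0.70 for Asns, -0.38 for Shmt2 and -0.30 for Mthfd2. Atf4 came nearest the threshold (limma adjusted p = 0.0756). Psph and Ddit3 were lower in every B16F10 than in every B16mhgp100 library, as were 2.51% of all genes. Without the library labelled Aoah 4 this held for Phgdh, Psat1, Shmt2 and Atf4 too, against 9.40% of all genes. With median-of-ratios scaling it held for Phgdh, Psph, Atf4 and Ddit3, 4 of the 10, against 3.99% of all genes.

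For markers of cell types, median differences between the models were -1.58 for skeletal muscle, -0.76 for endothelium, -0.73 for fibroblasts and -0.60 for keratinocytes. They were -0.07 for macrophages, 0.44 for melanocytes and 0.64 for T and NK cells. The sums of each list overlapped between the models. T and NK cell markers summed to 95.0 and 110.2 TPM in B16F10 Aoah tumours. They summed to 10.8 and 3.40 TPM in B16F10 Vector tumours and to 8.91 to 32.0 TPM in B16mhgp100 libraries. Without the library labelled Aoah 4, the median was -0.86 for skeletal muscle, 0.40 for keratinocytes and 0.09 for melanocytes. The part of these cell types in the result was not tested. The count between the models rested on the library labelled Aoah 4. Without it, 9 of the 10 genes fell, all but Mthfd2, while the share of all genes that fell went from 3.71% to 20.8%. Without B16F10 Vector 2 as well, 9 again fell, against 15.3% of all genes; B16F10 Vector then held 1 library, which is assumed to vary like the other groups. In that fit Phgdh had a difference of -1.01 (SE 0.06, limma adjusted p = 3.93e-05), Psat1 of -0.74, Psph of -0.98, Ddit3 of -0.98 and Atf4 of -0.58. Mthfd2 had a difference of -0.10 (limma adjusted p = 0.470). Without B16F10 Vector 1, 5 of the 10 genes fell, adding Asns and Atf4, against 4.11% of all genes.

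The comparison the study set in B16mhgp100 asks how tumours with Aoah differ from those with the Vector under anti-PD1. Of the 10 genes, 9 had a difference below 0 in libraries labelled Aoah, with the serine enzymes at -0.46 to -0.67, and Ddit3 lay the other way. A difference below 0 was also found for 9966 of all 14228 genes tested. When the library labelled Aoah 4 was left out it held for 8 of the 10 genes, with the serine enzymes at -0.16 to -0.43, and for 7778 of 13962 genes; with median-of-ratios scaling it held for 8 of the 10 and 6913 of 14090. None of the 10 passed the threshold in limma, and 0 of 14228 genes did, which is 0%. At an unadjusted p under 0.05, Phgdh and Psph were lower, as were 1.35% of all genes. Without the library labelled Aoah 4, 1 of 13962 genes passed, or 0.00716%, and it was none of these 10.

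The 3 enzymes that build serine did not overlap between the groups, and 5.15% of all genes lay without overlap in that direction. With median-of-ratios scaling this held for Phgdh and Psat1 but not for Psph, against 2.70% of all genes. For Phgdh, the range in libraries labelled Aoah of 128.1 to 236.3 TPM lay wholly under the Vector range of 279.9 to 302.6 TPM, with a difference of -0.58 (SE 0.22, limma adjusted p = 0.694). Psph had levels in libraries labelled Aoah of 25.9 to 38.6 TPM under Vector levels of 45.7 to 51.3 TPM, with a difference of -0.54 (SE 0.18, limma adjusted p = 0.694). Psat1 stood at 121.8, 116.4, 134.2 and 127.0 TPM in Vector and at 104.1, 100.4, 95.0 and 37.3 TPM in libraries labelled Aoah. The library labelled Aoah 4 was far the lowest of them, and the difference was -0.67 (SE 0.32, limma adjusted p = 0.694). Without the library labelled Aoah 4, the differences of Phgdh, Psph and Psat1 were -0.37, -0.43 and -0.32, with limma adjusted p of 0.494, 0.505 and 0.513.

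Shmt2 stood at 211.9, 179.3, 185.2 and 196.9 TPM in Vector and at 165.1, 151.4, 168.1 and 59.7 TPM in libraries labelled Aoah, with a difference of -0.61 (SE 0.32). All libraries labelled Aoah were lower than every Vector tumour, with the library labelled Aoah 4 far the lowest. Mthfd2, the mitochondrial folate enzyme that follows it, overlapped between the groups, with 43.6 to 111.0 TPM in libraries labelled Aoah and 106.6 to 122.1 TPM in Vector tumours. Asns, which makes asparagine, stood at 104.0, 96.5, 119.7 and 130.9 TPM in Vector and at 93.2, 95.9, 88.4 and 58.9 TPM in libraries labelled Aoah, so that its highest library labelled Aoah lay just under its lowest Vector tumour. The difference of Asns was -0.43 (SE 0.21), and that of Mthfd2 was -0.46 (SE 0.29). Without the library labelled Aoah 4, the differences were -0.26 for Shmt2, -0.27 for Asns and -0.16 for Mthfd2.

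Phgdh, Psat1, Psph, Shmt2 and Asns were therefore lower in every library labelled Aoah than in every Vector tumour, 5 of the 10 genes, against 5.15% of all genes in that direction. The same 5 genes did so without the library labelled Aoah 4, against 6.26% of all genes. The median of all genes was itself shifted, at -0.20, beside -0.50 for the 10 genes. These medians were -0.03 and -0.27 without the library labelled Aoah 4. With libraries scaled by the median of ratios, the median of all genes came to 0.01 and that of the 10 genes to -0.26. The genes lower in every library labelled Aoah were then Phgdh, Psat1 and Shmt2, against 2.70% of all genes. Melanocyte markers also had differences below 0, with a median of -0.66 and all 7 below 0 before that scaling. Their sums overlapped between the groups, at 17327 to 28466 TPM in Vector and 7802 to 23178 TPM in libraries labelled Aoah. Their median was -0.42 with 5 of 7 below 0 after it, and -0.18 with 6 of 7 below 0 without the library labelled Aoah 4. Macrophage markers lay the other way, with a median of 0.81 and all 8 above 0, and of 0.61 without that library. Their sums overlapped, at 241.5 to 1456 TPM in Vector and 245.3 to 3361 TPM in libraries labelled Aoah. Fibroblast markers also lay above 0, with a median of 0.40 and 7 of 7 above. Fibroblast sums overlapped too, at 119.6 to 845.9 TPM in Vector and 98.85 to 2099 TPM in libraries labelled Aoah. T and NK cell markers had a median of 0.18 with 6 of 7 above 0, and endothelium of -0.29 with 4 of 5 below. The sums of both lists overlapped between the groups. The part of these cell types in the result was not tested.

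Ddit3 was the one gene of the 10 above every Vector tumour in every library labelled Aoah, at 169.9 to 221.6 TPM against 118.2 to 169.2 TPM, and the nearest values of the groups were less than 1 TPM apart. Its difference was 0.39 (SE 0.17, limma adjusted p = 0.694), and 0.43 without the library labelled Aoah 4. Among all genes, 0.731% were higher in every library labelled Aoah, 2.96% without that library, and 1.83% with median-of-ratios scaling, where Ddit3 was again among them. Trib3, a pseudokinase that restrains ATF4, stood at 48.4, 32.0, 37.1 and 47.6 TPM in Vector and at 40.3, 52.1, 61.8 and 20.3 TPM in libraries labelled Aoah. Those groups overlapped, with a difference of -0.01 (SE 0.34) that was 0.31 without the library labelled Aoah 4 and 0.23 with median-of-ratios scaling. Atf4 overlapped too, at 295.7 to 371.0 TPM in Vector and 176.2 to 326.2 TPM in libraries labelled Aoah.

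Chac1 encodes an enzyme that breaks down glutathione. It stood at 26.3, 23.3, 31.4 and 31.9 TPM in Vector and at 20.6, 16.8, 23.6 and 4.65 TPM in libraries labelled Aoah. One library labelled Aoah thus lay just above the lowest Vector tumour. The Chac1 difference of -0.93 (SE 0.44, limma adjusted p = 0.694) was the largest in size of the 10, and without the library labelled Aoah 4 it was -0.46 (SE 0.15). In that library 9 of the 10 genes had their lowest level of the 8 B16mhgp100 tumours, as did 62.9% of all genes.

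**Figure D2:**
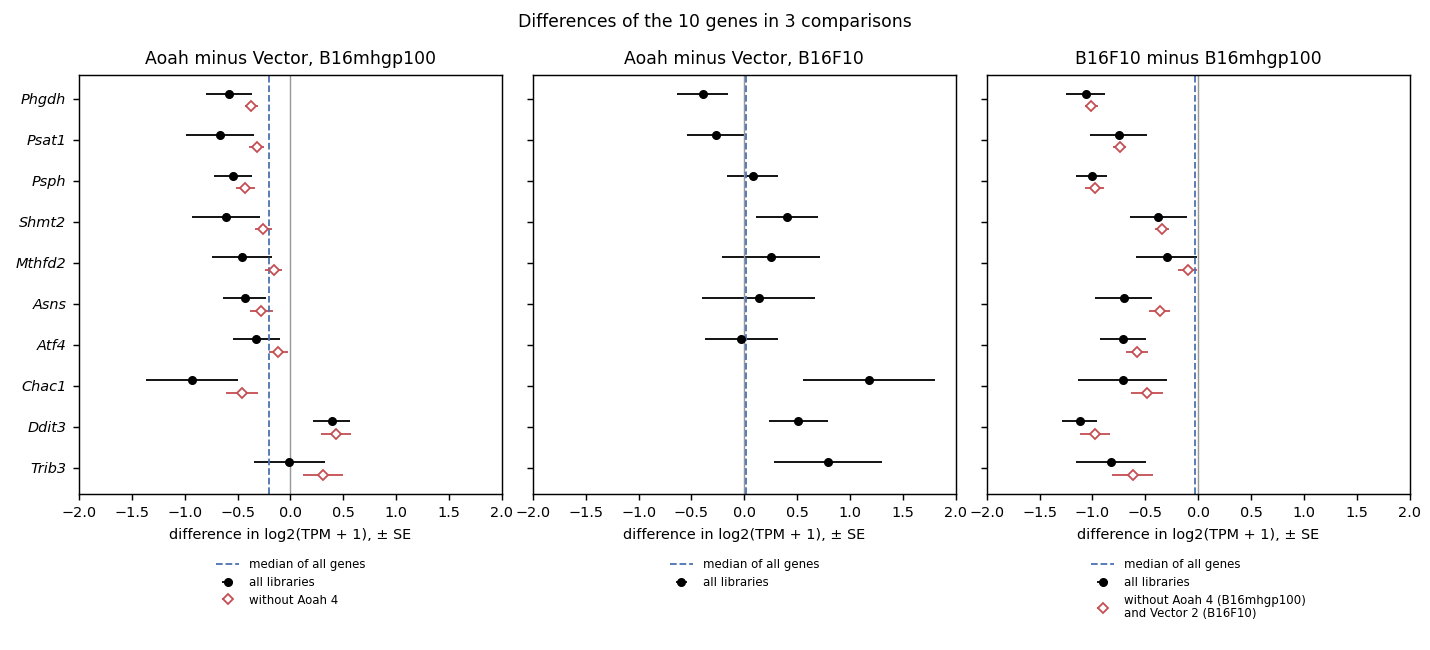
Differences in log2(TPM + 1) with their standard errors for the 10 genes in 3 comparisons, with 1 panel each; filled points use all libraries, open diamonds leave out the libraries named in the legend, and the dashed line is the median of all genes. The serine enzymes lie left of 0 in the B16mhgp100 and between-model panels, and Ddit3 lies right of 0 within both models and left of it between them.

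In the authors' deposited table for B16mhgp100, made from counts, Phgdh had a log2 fold change of -0.37 (SE 0.09) and an adjusted p of 0.0774. An adjusted p under 0.05 was listed for 3 genes in the authors' deposited table, none of them among these 10. The same deposited table gives fold changes of -0.44 for Psat1, -0.34 for Psph, -0.38 for Shmt2, -0.69 for Chac1 and 0.63 for Ddit3, with adjusted p from 0.642 to 0.812.

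In B16F10 the same question was asked under anti-PD1 with anti-CTLA4, with 2 tumours in each group, and the 2 Vector tumours differed from each other more than the groups did for each of the 10 genes. Asns stood at 100.9 TPM in Vector 1 and 30.9 TPM in Vector 2, with the Aoah tumours between them at 58.9 and 64.3 TPM. Chac1 stood at 15.3 and 3.45 TPM in Vector and at 15.7 and 21.2 TPM in Aoah tumours. Trib3 stood at 28.4 and 9.83 TPM in Vector and at 24.1 and 36.9 TPM in Aoah tumours. Of these, Chac1 was higher in both Aoah tumours than in both Vector tumours, by a margin of less than 1 TPM over Vector 1.

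Vector 1 exceeded Vector 2 by 4.42-fold in Chac1, 3.27-fold in Asns, 2.89-fold in Trib3 and 2.66-fold in Mthfd2, and by 1.28-fold to 1.94-fold in the other 6 genes. These 4 of 10 genes were at least 2-fold lower in Vector 2, as were 11.3% of all genes; with median-of-ratios scaling it was the same 4 genes, against 5.61%. Psph, Asns, Atf4, Chac1, Ddit3 and Trib3 had their lowest level of all 12 libraries there, as did 8.11% of all genes. The mitochondrial share was highest in that library, and its part in the result was not tested.

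None of the 10 genes passed in B16F10 in limma, while 50 of 14533 genes passed, which is 0.344%. None had an unadjusted p under 0.05 either, where 10.9% of all genes did on the higher side and 7.28% on the lower. Chac1 had a difference of 1.18 (SE 0.62, limma adjusted p = 0.383), Trib3 of 0.79 (SE 0.51, limma adjusted p = 0.468) and Ddit3 of 0.51 (SE 0.28, limma adjusted p = 0.400). Phgdh had a difference of -0.39 (SE 0.24, limma adjusted p = 0.448), with Aoah tumours at 106.3 and 95.0 TPM just under Vector 2 at 106.7 TPM. Those groups did not overlap, which held for 22.6% of all genes in that direction and, as for Chac1, for 28.0% in the other. The remaining 6 differences lay between -0.27 for Psat1 and 0.40 for Shmt2. T and NK cell markers differed between these groups, summing to 95.0 and 110.2 TPM in Aoah and to 10.8 and 3.40 TPM in Vector tumours, with 7 of 8 markers at 1 TPM or more in each Aoah tumour and 3 and 0 of 8 in Vector 1 and 2. Markers of fibroblasts, endothelium and skeletal muscle lay lower in the Aoah tumours, with medians of -1.03 (7 of 7 below 0), -1.21 (5 of 5) and -1.08 (5 of 5). The part of these cell types in the result was not tested.

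Which Vector tumour was kept decided the calls. Without Vector 1, 6 genes rose in Aoah tumours (Shmt2, Mthfd2, Asns, Chac1, Ddit3 and Trib3), with Chac1 at 2.11 and Asns at 0.97, while 16.4% of all genes rose. Without Vector 2, Phgdh, Psat1 and Asns fell, at -0.70, -0.63 and -0.71, while 12.3% of all genes fell. Each of these fits left a lone Vector tumour, assumed to vary like the Aoah tumours. Asns thus changed in opposite directions in them. In the authors' deposited table for B16F10 none of the 10 genes had an adjusted p under 0.05, among 1222 genes that did; Chac1 had a log2 fold change of 1.03 (adjusted p = 0.264) and Phgdh of -0.42 (adjusted p = 0.333).

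The difference between the models in the effect of Aoah was tested as an interaction over all 12 libraries. None of the 10 genes passed in limma, and 5 of 16556 genes did, which is 0.0302%. All 10 differences, B16F10 minus B16mhgp100, were above 0 (all but Phgdh and Ddit3 with median-of-ratios scaling), with a median of 0.59 beside 0.16 for all genes. Chac1 had the largest, at 2.11 (SE 0.84, limma adjusted p = 0.849), and it was the one gene of the 10 with an unadjusted p under 0.05, against 3.41% of all genes in that direction. The direction rested on the 2 libraries that stood apart. Without both, none of the 10 passed, against 2.25% of all genes, and 7 of the 10 differences were below 0, with a median of -0.27, where 9325 of 15979 genes were below 0 with a median of -0.11. With median-of-ratios scaling as well, the medians were -0.15 for the 10 genes and near 0 for all genes. Chac1 was at 0.70 (SE 0.31, limma adjusted p = 0.244). In simulated data this test recovered 0% of changes of 1 log2 unit and 72.5% of changes of 2. Smaller changes, as seen in most of these genes, were not simulated. The simulated noise was independent between libraries, with a spread set by expression level, so no library stood apart in it. It cannot settle what was detectable for these genes, and the lack of calls does not show an equal effect in the models.

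Other genes of the same pathways were read from 7 lists of 107 genes. Within each model, 0 genes of any list passed in limma for Aoah against Vector, and 0 for the difference of that effect between the models. At an unadjusted p under 0.05 there was 1 of the 103 list genes tested in B16mhgp100, 18 of 102 in B16F10 and 5 of 105 for the difference of the effect. These are 0.971%, 17.6% and 4.76%, against 2.46%, 18.2% and 5.65% of all genes. An adjusted p under 0.05 was listed for 0 of 104 list genes in the authors' deposited table for B16mhgp100 and for 14 of 104 in the authors' deposited table for B16F10. Over all entries it was listed for 3 of 31267 and for 1222 of 26878. Some entries have no adjusted p, so the lists and all entries are not compared like for like. Between the models, 11 of 105 list genes passed, against 3.71% of all genes that fell and 3.66% that rose. Of 20 tRNA synthetases, which charge tRNAs with amino acids, 4 fell in B16F10 and 0 rose: Mars1 by 0.86, Cars by 0.85, Lars by 0.76 and Eprs by 0.67 on the log2 scale, with limma adjusted p from 0.00463 to 0.0184. Mars1 stood at 33.9 to 44.2 TPM in B16F10 and at 60.7 to 86.7 TPM in B16mhgp100, with no overlap, as for 2.51% of all genes in that direction. The library labelled Aoah 4 held the highest B16mhgp100 level of Mars1, Cars and Lars, at 86.7, 98.5 and 89.5 TPM. It held the lowest of Eprs, at 92.5 TPM. The median of the 20 was -0.22, and -0.42 without the library labelled Aoah 4.

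Of 21 other one-carbon genes tested, Aldh1l2 and Cth fell in B16F10 and 0 rose. Aldh1l2, a mitochondrial folate enzyme, stood at 1.67 to 5.63 TPM there and at 16.5 to 29.2 TPM in the B16mhgp100 tumours other than the library labelled Aoah 4, which held 2.40 TPM. Its difference was -2.23 (limma adjusted p = 0.0192). Without both libraries that stood apart, Cth no longer passed (limma adjusted p = 0.0514). The list's median of -0.03 equalled that of all genes. Among 15 other ATF4 targets, Nupr1 and Gdf15 fell and 0 rose. Nupr1, a small stress-induced nuclear protein, had a difference of -1.42 (limma adjusted p = 0.0115) and Gdf15, a secreted stress cytokine, of -1.03 (limma adjusted p = 0.017), and the list's median was -0.55.

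Of 15 genes for the eIF2 kinases, eIF2 and its exchange factor, 0 passed between the models, and of 10 amino acid transporters 0 passed. The medians of these lists were -0.16 and -0.24. Of 16 genes of the endoplasmic reticulum stress response, Hsp90b1 fell, at -0.99 (limma adjusted p = 0.000794), and Sdf2l1 rose, at 0.82 (limma adjusted p = 0.00153). Both act in protein folding in that compartment. Of 8 mitochondrial stress genes, Clpp, a matrix protease, rose, at 0.61 (limma adjusted p = 0.0137). Without both libraries that stood apart, those falling numbered 11 of 20 tRNA synthetases, 7 of 15 ATF4 targets, 6 of 15 in the eIF2 list, 4 of 10 transporters, 4 of 16 endoplasmic reticulum genes, 2 of 21 one-carbon genes and 1 of 8 mitochondrial stress genes, against 15.3% of all genes.

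**Figure D3:**
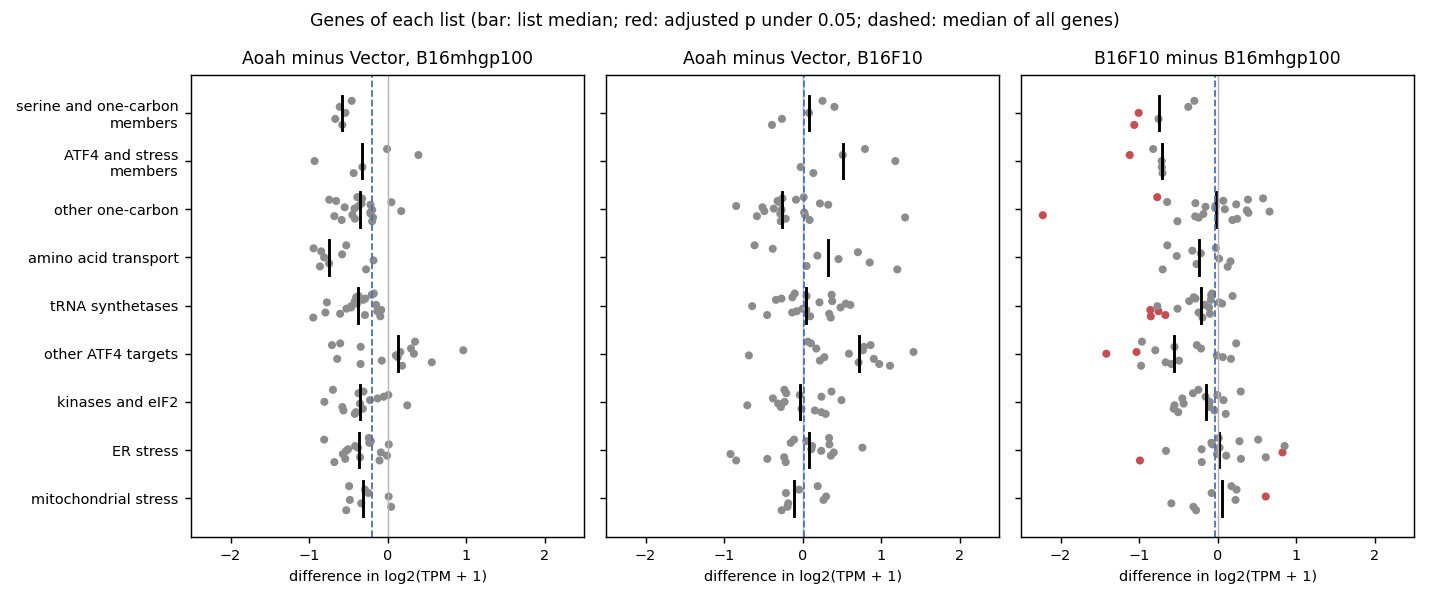
Differences in log2(TPM + 1) of the genes in each list, with 1 point per gene, red where the limma adjusted p is under 0.05, a bar at the list's median and a dashed line at the median of all genes, for Aoah minus Vector in each model and for B16F10 minus B16mhgp100. The 5 serine enzymes have medians of -0.58, 0.08 and -0.75, ATF4 and the 4 genes beside it have medians of -0.32, 0.51 and -0.71, and the other ATF4 targets have medians of 0.13, 0.71 and -0.55.

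Within B16mhgp100, the other ATF4 targets had a median of 0.13, beside the median of -0.20 over all genes. Ppp1r15a, which brings the phosphatase that reverses eIF2 phosphorylation, stood at 16.2 to 17.3 TPM in Vector tumours. It stood at 23.5, 23.1, 28.9 and 82.3 TPM in the libraries labelled Aoah 1 to 4. All 4 lay above every Vector tumour, as for Ddit3 and for 0.731% of all genes, or 2.96% without the library labelled Aoah 4. The difference of Ppp1r15a was 0.96 (SE 0.38, limma adjusted p = 0.694), and 0.54 without that library. Amino acid transporters lay lower, with a median of -0.75 and 9 of 9 below 0, or 8 of 9 after median-of-ratios scaling, and the median was -0.19 without the library labelled Aoah 4. Slc1a4, a carrier of serine and alanine, stood at 10.6 to 13.3 TPM in Vector and at 2.00 to 9.20 TPM in libraries labelled Aoah. These groups did not overlap, as for 5.15% of all genes in that direction. Slc1a4 had a difference of -0.81 (SE 0.39, limma adjusted p = 0.694) that was -0.39 without the library labelled Aoah 4. The tRNA synthetases had a median of -0.38, or -0.15 without that library, with all 20 below 0, and 6 of them lay above 0 after median-of-ratios scaling.

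Over the 12 libraries, the 10 genes varied together to different degrees. Pearson's r of log2(TPM + 1) ran from 0.359 to 0.956 over their 45 pairs, with a median of 0.823. The median over all pairs of genes was 0.11. A high r was not particular to the 10, as ranking all 16555 other genes by r with each of them showed. The best place of another of the 10 was 7, for Shmt2 with Chac1. The last was 8686, for Ddit3 with Shmt2. Psph came at place 1597 for Psat1, and Shmt2 at place 2114 for Phgdh. Libraries share a model, a group and the spread of the 2 libraries that stood apart, so these values are a description. Phgdh, Psat1 and Psph had r of 0.856 to 0.956 with each other, and 0.950 to 0.990 without the library labelled Aoah 4. Ddit3 was least like the rest, with r of 0.359 to 0.768, and with 0.682 to 0.905 without that library.

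**Figure D4:**
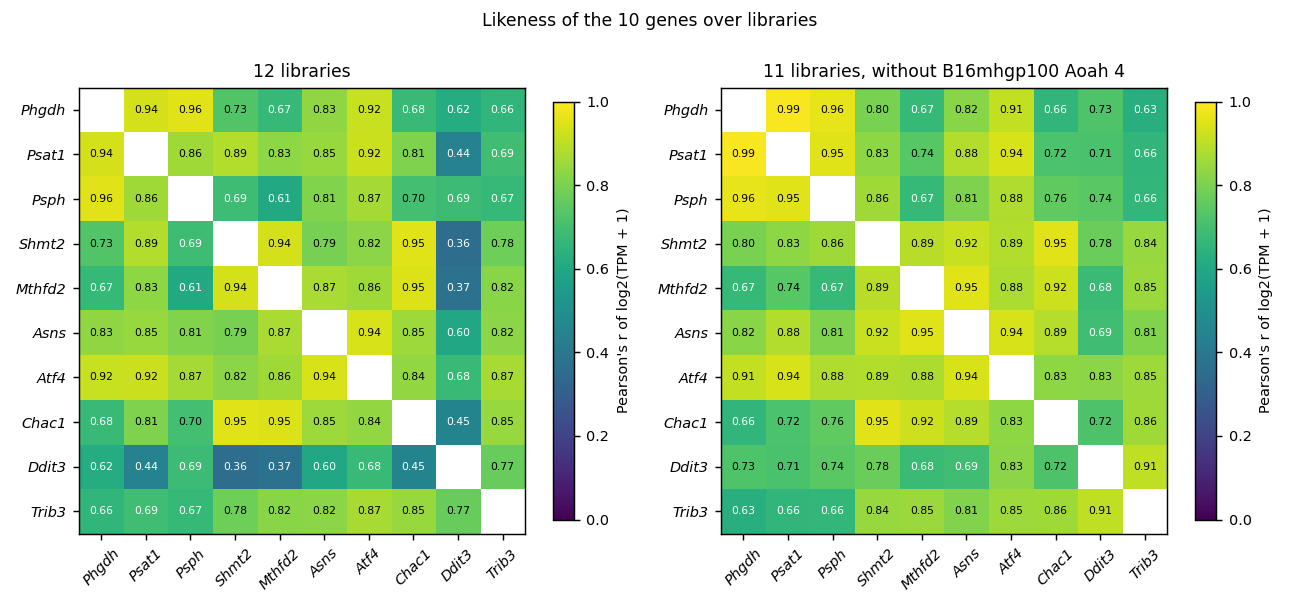
Pearson's r of log2(TPM + 1) between each pair of the 10 genes over 12 libraries and over the 11 that remain without the library labelled Aoah 4, with the value written in each cell. The lowest value over 12 libraries is that of Ddit3 with Shmt2, at 0.359, and Phgdh and Psat1 reach 0.99 over 11.

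Among all 16555 other genes tested, the one most like Shmt2 was Slc1a4, with r = 0.991, and 0.988 without the library labelled Aoah 4. Ddit3 was most like Usp36, a deubiquitinase of the nucleolus, over 12 libraries (r = 0.973), and most like Pdk3 without that library (r = 0.975). Trib3 was most like Ccdc102a (r = 0.947, and 0.963 without that library). Phgdh was most like Fads6 over 12 libraries (r = 0.988), and without the library labelled Aoah 4 Psat1 came second in likeness to it, with r = 0.990. The genes most like the others over 12 libraries were Adh5 for Psat1, Mlxipl for Psph, Sfmbt1 for Mthfd2, Spryd7 for Asns, Zik1 for Atf4 and Vdac2 for Chac1, with r of 0.972 to 0.988. None of these stayed first without the library labelled Aoah 4. In the same order, the first were then Gm31274, Cdk4, 5730455P16Rik, Kpna3, Mrpl9 and Mtor, with r of 0.979 to 0.995.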

How the data were processed

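Bulk polyA RNA of 12 tumours was read as pairs, per the labels' protocols. The authors deposited log2(TPM + 1) per gene and library; RSEM and build mm39 are named in the submitters' processing notes, without versions. Turned back to TPM, libraries summed to 992185 to 996590. Reads per library are unknown. The authors also deposited 1 DESeq2 table per model, with a mean normalised signal, a log2 fold change, a test score and p-values; these were read as they stand. Promoter windows are RefSeq's for GRCm38.p6, used for sequence only.

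Log2(TPM + 1) was tested with limma 3.58.1 in R 4.3.3 with an intensity trend, a 2-sided test, Benjamini-Hochberg adjustment over all genes and a threshold of 0.05. Genes needed at least 1 TPM in as many libraries as the smallest group held. Aoah was compared with Vector within each model; the interaction, and the mean of the B16F10 groups minus that of the B16mhgp100 groups, came from 1 fit of all libraries. Groups came from the titles. On simulated data the test recovered 48% of changes of 1 log2 unit in B16mhgp100, 0.5% in B16F10 and 63.5% between the models. The simulated spread followed expression level and was the same in all groups. These shares therefore cannot settle what was detectable in the real groups. The 10 genes and all lists were chosen with earlier results of these data known. All 10 genes are named; of each other list, the 4 lowest p in a comparison may be named, and for each of the 10 the 3 genes with the highest r, of which the first is printed. Genes named for being higher or lower without overlap, or for falling without a library, were chosen after their values were seen. Equal replicate numbers do not mark pairs in the labels, and same-numbered B16mhgp100 tumours had correlations of -0.24 to 0.07 in their deviations from group means. Alternatives were a pseudocount of 0.1, no filter, median-of-ratios scaling, array weights, a replicate block, a fit of all libraries and leaving out libraries. The deposited immune repertoire table was not used here.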

Additional observations from a re-analysis of the deposited data

Results flagged for a closer look

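Each of the 10 genes was checked in the 2 groups of 4 tumours, 20 checks in all, for a highest or lowest library whose gap to the nearest other exceeded Dixon's critical value for the group's range. Chance gives about 1 in 20 such groups. In the library labelled Aoah 4 of B16mhgp100, 4 genes stood far below the others labelled Aoah: Phgdh at 128.1 TPM against 218.5 to 236.3 TPM, Psat1 at 37.3 TPM against 95.0 to 104.1 TPM, Shmt2 at 59.7 TPM against 151.4 to 168.1 TPM, and Atf4 at 176.2 TPM against 309.7 to 326.2 TPM. Phgdh in B16mhgp100 Vector 2 stood at 279.9 TPM, below a narrow range of 300.4 to 302.6 TPM in the other Vector tumours. Ddit3 stood at 221.6 TPM in the library labelled Aoah 3, above 169.9 to 178.6 TPM in the others labelled Aoah.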

How the results depend on the processing

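Of the 10 genes, none passed for Aoah against Vector in B16mhgp100 or for the interaction under any alternative run. In B16F10 none passed except on leaving out 1 library (0 to 6 genes). Between the models, 3 passed, with 6 under median-of-ratios scaling, 9 with array weights, 9 without both libraries that stood apart, and 3 to 9 on leaving out 1 library. Over all genes, B16mhgp100 had 0 calls, 1 with a pseudocount of 0.1, 5 with array weights and 0 to 1 on leaving out 1 library. B16F10 had 50, with 32 at a pseudocount of 0.1, 0 without the filter, 127 with scaling, 115 with array weights and 234 to 3242 on leaving out 1 library. The interaction had 5, with 46 without the filter, 9 with scaling, 31 with array weights, 359 without both libraries and 1 to 45 on leaving out 1. Between the models there were 1221, with 2202 with scaling, 4655 with array weights, 4223 without both libraries and 391 to 5303 on leaving out 1. With the replicate number as a block, calls over all genes were 765 in B16F10, 2 for the interaction and 280 between the models, and the pairing changed no call among the 10 genes. Signs changed for Trib3 in B16mhgp100 (0.23 with scaling, 0.16 with array weights, -0.21 to 0.31 on leaving out 1 library). In B16F10, leaving out 1 library gave -0.63 to 0.10 for Psat1, -0.50 to 0.45 for Atf4, -0.0921 to 0.25 for Psph, -0.0207 to 0.82 for Shmt2, -0.45 to 0.95 for Mthfd2 and -0.71 to 0.97 for Asns. The interaction of Phgdh was -0.0753 with scaling and -0.0221 with array weights, and that of Ddit3 -0.14 with scaling. Without both libraries it was -0.33 for Phgdh, -0.31 for Psat1, -0.29 for Mthfd2, -0.43 for Asns, -0.39 for Atf4, -0.25 for Ddit3 and -0.24 for Trib3. On leaving out 1 library it ran from -0.12 to 0.49 for Phgdh, -0.27 to 1.41 for Asns, -0.18 to 0.77 for Atf4 and -0.21 to 0.44 for Ddit3, and the difference of Mthfd2 between the models from -0.65 to 0.0498. Counts of genes without overlap were chosen after seeing the data. Of the 10 genes, 5 lay lower in every B16mhgp100 library labelled Aoah, and 3 with scaling; 2 lay lower in every B16F10 library, and 4 with scaling, 6 without the library labelled Aoah 4 and 6 without both. The causes of these changes were not tested. Depth per library is unknown, so no counting error could be given.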

Other observations

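Some pathway genes other than the 10 had an adjusted p under 0.05 in the authors' deposited table for B16F10, where 1222 genes did. Genes with higher levels in Aoah tumours in the authors' deposited table included Aldh1l1, a cytosolic folate enzyme (log2 fold change 1.30, adjusted p = 3.92e-06), and Slc7a5 and Slc3a2, the 2 chains of a carrier of large neutral amino acids (1.13, adjusted p = 0.00416, and 0.84, adjusted p = 0.000872). They also included the ATF4 targets Gdf15, Atf5 and Sesn2, at 1.68, 0.98 and 0.96 in the authors' deposited table. Genes lower in Aoah tumours there included Dnajc3 and Hsp90b1, a co-chaperone and a chaperone of the endoplasmic reticulum, at -0.97 and -0.86. Slc7a5 had levels of 206.4 and 212.6 TPM with Aoah and 134.7 and 60.7 TPM with Vector. The limma fit of TPM called none of these genes in B16F10, with an adjusted p of 0.0585 for Aldh1l1, 0.0853 for Slc3a2 and 0.103 for Gdf15. In the authors' deposited table for B16mhgp100, the fold changes were 0.03 for Aldh1l1, -0.45 for Slc7a5, 0.04 for Slc3a2 and 0.37 for Gdf15. T and NK cell markers were higher in the B16F10 Aoah tumours, and their part in these values was not tested.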
